A study of Mus musculus with 10 samples.

Results

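The 7 genes described here were listed together as squamous, epidermis-type genes, a grouping that was not tested. The genes are Lgals7, Skint3, Sprr1a, Klk10, Fgfr3, Fgfbp1 and Slc14a1, followed through sorted mammary epithelial cells of mice. They are 7 of the 23973 gene symbols read from the deposited tables. The genes were chosen by name with earlier values of these same columns known, because some of them are high in a sorted population labelled Bsecs, so every level and ratio of theirs given here is a description with no test of its own. Bsecs was the highest column for 6 of the 7, although Sprr1a (1.54-fold) and Fgfbp1 (1.79-fold) were less than 2-fold over KO luminal. Klk10 had 2 reads in Bsecs and was read mainly in luminal cells.

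RNA came from the mammary glands of female mice, and every mouse had been given tamoxifen, 15 mg per kg in total, before its cells were sorted by FACS. By their titles, the 10 libraries form 5 groups of 2: Bptf WT luminal, Bptf WT myoepithelial, Bptf KO luminal, Bptf KO myoepithelial and Bptf KO Bsecs, an abbreviation that the labels do not spell out. Bptf encodes a subunit of the NURF chromatin remodelling complex; the sources used here do not give the Cre driver, the age of the mice or the number of mice behind a library. The source label of the KO luminal libraries names BptfWT mice, against their titles, and the 2 myoepithelial (basal) columns carry opposite genotype names in different tables. The basal columns are therefore called the larger basal column (2359861 reads) and the smaller basal column (2036681 reads), every column is named by its label only, and no difference is ascribed to the loss of Bptf.

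One column of mean values was deposited per group, so no value has a spread between replicates, and the intervals given are exact 95% intervals for counting error only. The recovered reads summed to 2036681 to 3840462 per column, 3659403 of them in Bsecs, and 11772 to 13933 genes were detected. Rn45s, the precursor of ribosomal RNA, accounted for 32.2% of the Bsecs reads and for 9.76% to 16.2% of those in the other columns. Bptf itself had 420 to 1018 reads per column, 645 in Bsecs, 1018 in KO luminal and 640 in WT luminal; reads over the whole gene do not check a deletion of some exons. A level is the number of reads divided by a scale factor for its column, and a column with 0 reads is given a floor of 3 reads, which corresponds to a level of 2.23 to 4.10. Housekeeping genes such as Gapdh (2 to 25 reads) and Eno1 (0 or 1 read) were themselves near 0 in every column, so a gene listed at 0 is not read as unexpressed.

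The epidermis is a stratified epithelium whose basal cells divide and whose upper cells harden into a cornified layer, in which small proline-rich proteins are cross-linked by transglutaminases and shed under the control of kallikrein peptidases. FGF receptors on keratinocytes receive signals from ligands that are stored on heparan sulphate and released by carrier proteins, and Skint proteins are butyrophilin-like molecules of the mouse epidermis, at least one of which skin T cells need. The normal mammary gland has an inner luminal layer and an outer contractile myoepithelial layer, and does not cornify.

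Start regions from RefSeq (build GRCm38.p6, 250 bases before to 50 after the start) were available for 6 of the 7 genes, Fgfr3 with 2 of them. They are shown because these genes share high levels in one population, and because Klk10 has the opposite pattern. Each is written 5′ to 3′ on the gene's own strand: Sprr1a at chr3:92485832-92486131 on the minus strand, Fgfbp1 at chr5:43981750-43982049 on the minus strand, and, all on the plus strand, Lgals7 at chr7:28864136-28864435, Skint3 at chr4:112231995-112232294 and Klk10 at chr7:43780804-43781103. Capitals mark matches, on either strand, to the AP-1 letters TGANTCA, the TATA box letters TATAAA, the Kruppel-like letters GGGTGTGG and the Grainyhead letters AACCNGTT, which do not overlap in these windows.
Sprr1a: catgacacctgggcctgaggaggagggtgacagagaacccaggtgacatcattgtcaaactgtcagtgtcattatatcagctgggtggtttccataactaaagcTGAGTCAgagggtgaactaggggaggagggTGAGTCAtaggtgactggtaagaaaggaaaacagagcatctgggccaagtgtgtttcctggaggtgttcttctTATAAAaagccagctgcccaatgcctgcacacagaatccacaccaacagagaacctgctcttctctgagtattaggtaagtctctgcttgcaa
Fgfbp1: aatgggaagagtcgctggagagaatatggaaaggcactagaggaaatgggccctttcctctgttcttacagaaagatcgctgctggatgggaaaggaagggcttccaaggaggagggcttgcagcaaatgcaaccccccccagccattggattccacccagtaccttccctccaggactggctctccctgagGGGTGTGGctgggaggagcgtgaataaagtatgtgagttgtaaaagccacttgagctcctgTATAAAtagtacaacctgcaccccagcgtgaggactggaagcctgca
Lgals7: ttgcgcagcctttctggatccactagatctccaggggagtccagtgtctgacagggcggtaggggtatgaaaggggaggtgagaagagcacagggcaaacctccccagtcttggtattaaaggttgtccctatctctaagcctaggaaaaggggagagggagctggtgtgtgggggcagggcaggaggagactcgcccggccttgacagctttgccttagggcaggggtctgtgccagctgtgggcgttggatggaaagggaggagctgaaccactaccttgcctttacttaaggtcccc
Skint3: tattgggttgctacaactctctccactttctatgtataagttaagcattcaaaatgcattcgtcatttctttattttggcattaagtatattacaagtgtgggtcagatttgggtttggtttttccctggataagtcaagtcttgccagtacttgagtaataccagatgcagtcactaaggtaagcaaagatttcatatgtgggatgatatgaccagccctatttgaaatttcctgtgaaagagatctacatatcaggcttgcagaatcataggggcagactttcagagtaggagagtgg
Klk10: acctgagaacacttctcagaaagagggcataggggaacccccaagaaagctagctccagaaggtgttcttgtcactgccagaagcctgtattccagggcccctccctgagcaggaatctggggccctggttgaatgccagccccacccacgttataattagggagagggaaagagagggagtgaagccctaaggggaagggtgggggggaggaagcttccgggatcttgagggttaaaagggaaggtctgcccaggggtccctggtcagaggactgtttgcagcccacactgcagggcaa
The Sprr1a window held 2 AP-1 matches, 146 and 116 bases before the start, and a TATA box match 43 bases before it. Fgfbp1 held a Kruppel-like match 58 bases before the start and a TATA box match 3 bases after it. Among all 32851 windows, 7.81% held the AP-1 letters, 13.6% the TATA box letters, 3.56% the Kruppel-like letters and 2.09% the Grainyhead letters. No match was found in the windows of Lgals7, Skint3 and Klk10 or in either window of Fgfr3, which are richer in G and C (69.7% and 73%) than the median window (52.7%). The matches are letters in a reference sequence, and no binding or accessibility was measured with them here.

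Sprr1a encodes a small proline-rich precursor of the cornified envelope. It had 5286 reads in Bsecs, 4990 in KO luminal, 524 in WT luminal, 49 in the larger basal column and 0 in the smaller one. Its levels were 5729 in Bsecs, 3710 in KO luminal, 481 in WT luminal and 48.5 in the larger basal column, and each step of that order exceeded counting error. Sprr1a was therefore high in Bsecs and also in KO luminal, whose levels differed 1.54-fold (1.49 to 1.61), and low in both basal columns. Scaling by column totals brought that log2 fold from 0.63 to 0.15.

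Lgals7 encodes galectin-7, a galactoside-binding lectin of stratified epithelia. It had 1477 reads in Bsecs, 62 in KO luminal, 50 in the larger basal column, 36 in the smaller one, and 7 in WT luminal. The levels were 1601 in Bsecs, 49.5 in the larger basal column, 49.2 in the smaller one, 46.1 in KO luminal and 6.43 in WT luminal. Bsecs stood 32.4-fold (24.4 to 43.8) over the next column, the larger basal one. The basal columns and KO luminal did not differ beyond counting error, with a ratio of 1.01 (0.642 to 1.59) between the basal columns, and WT luminal lay below them.

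Skint3 belongs to the Skint family of immunoglobulin-like membrane proteins, which mouse skin and thymus express. It had 589 reads in Bsecs, 9 in KO luminal, 5 in the larger basal column, and 0 in both WT luminal and the smaller basal column. Its level was 638 in Bsecs and at most 6.69 elsewhere, a 95.4-fold difference (49.9 to 210) from KO luminal, the next column. Nearly all of its reads were in Bsecs, and neighbours in the order of the other columns did not differ beyond counting error. As Skint genes are similar in sequence and the handling of reads that match several genes is not given, the split of reads among them is uncertain.

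The FGF system supplied a receptor and a carrier. Fgfr3, a receptor tyrosine kinase for FGFs, had 903 reads in Bsecs, 112 in KO luminal, 50 in WT luminal, 9 in the larger basal column and 1 in the smaller one. Its levels were 979, 83.3, 45.9, 8.90 and 1.37 in that order, and the basal columns did not differ beyond counting error (6.52-fold, 0.903 to 286). Bsecs was 11.8-fold (9.65 to 14.4) over KO luminal, so that Fgfr3 was high in 1 population, lower in luminal cells and lowest in basal cells.

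Fgfbp1 encodes the secreted protein that carries FGFs off the matrix. It had 160 reads in Bsecs, 130 in KO luminal, 43 in the larger basal column, 21 in WT luminal and 0 in the smaller basal column. The levels were 173 in Bsecs, 96.7 in KO luminal, 42.5 in the larger basal column and 19.3 in WT luminal. Its order matched that of Sprr1a at the top, with KO luminal next to Bsecs (1.79-fold, 1.41 to 2.28), but it had the fewest Bsecs reads of the 6 genes that were high there.

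Slc14a1 encodes the urea transporter UT-B. It had 1828 reads in Bsecs, 214 in KO luminal, 77 in WT luminal, 29 in the larger basal column and 7 in the smaller one. Levels were 1981, 159, 70.7, 28.7 and 9.56 in the same order, and each step exceeded counting error. Slc14a1 thus had the same order of columns as Fgfr3, with 12.5-fold (10.8 to 14.4) between Bsecs and KO luminal.

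Klk10 encodes a secreted kallikrein-related peptidase. It had 793 reads in WT luminal, 381 in KO luminal, 3 in the smaller basal column, 2 in Bsecs and 0 in the larger basal column. Its levels were 728 in WT luminal and 283 in KO luminal, 2.57-fold apart (2.27 to 2.91), against 2.17 in Bsecs. Klk10 was a gene of the luminal columns, and with 3 reads or fewer the other 3 columns could not be ordered.

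**Figure D1:**
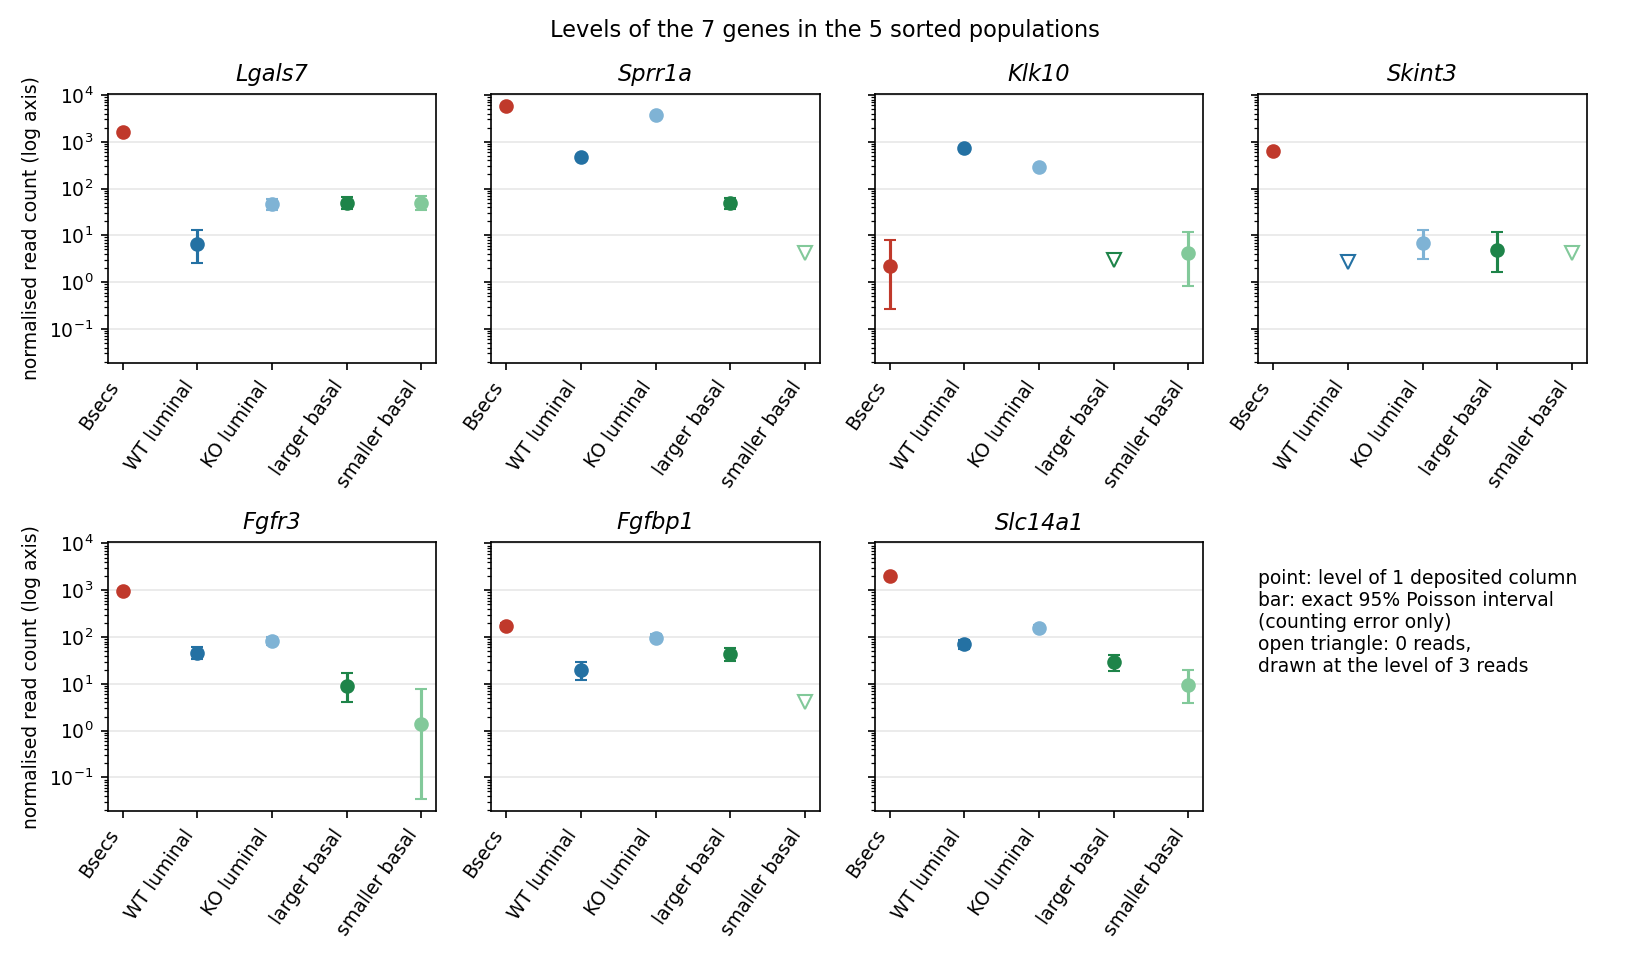
Level of each of the 7 genes (normalised read count, log axis) in the 5 columns; a point is 1 deposited column, a bar its exact 95% Poisson interval for counting error, and an open triangle marks 0 reads, drawn at the level of 3 reads. Bsecs is the highest column for 6 genes, from 173 for Fgfbp1 to 5729 for Sprr1a, while Klk10 is highest in WT luminal at 728.

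Against the basal columns, Bsecs had more of every gene except Klk10, whose reads were too few in these columns for a ratio. Over the larger basal column the level of Skint3 was 129-fold higher (55 to 399), Sprr1a 118-fold (89.3 to 160) and Fgfr3 110-fold (57.7 to 241). Slc14a1 was 69.1-fold higher (47.9 to 103), Lgals7 32.4-fold and Fgfbp1 4.08-fold (2.90 to 5.85). Fgfbp1 lay just past a ratio of 4 and fell short of it under scaling by column totals, with a log2 fold of 1.26 in place of 2.03, or 1.67 with Rn45s left out of the totals. Where a gene was called at a ratio of at least 4 in either direction with a mean level of at least 50 in the pair, 6 of the 7 were called higher and 0 lower, against 7.52% of 6159 genes called higher and 7.55% called lower; since the genes were chosen on these columns, nothing is read from that contrast. By adjusted p-values (DESeq, Benjamini-Hochberg over all genes) of the authors' deposited table, which pass 0.48% of 14986 genes, 3 of the 7 passed, Skint3 at 0.0103, Fgfr3 at 0.0125 and Slc14a1 at 0.0491. Lgals7 had an adjusted p of 0.119 and Sprr1a of 0.153 in the authors' deposited table, although Sprr1a had one of the wider ratios.

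Over the smaller basal column the same 6 genes were higher, several of them against very few reads or 0. With the floor of 3 reads in place of 0, Sprr1a was 1398-fold higher in Bsecs (interval from 1137), Skint3 156-fold (from 126) and Fgfbp1 42.3-fold (from 34.0). Fgfr3 was 717-fold higher (128 to 28336) against 1 read, and Slc14a1 207-fold (100 to 516). Lgals7 was 32.6-fold higher (23.4 to 46.7), close to its ratio over the larger basal column. Again 6 of the 7 were called higher and 0 lower, against 7.59% and 8.44% of 6136 genes. The adjusted p of the authors' deposited table was under the threshold for 4 of them, against 0.759% of 13698 genes, namely Skint3 and Fgfr3 at 0.000712, Sprr1a at 0.00076 and Slc14a1 at 0.00333. Fgfbp1 at 0.0581 and Lgals7 at 0.0737 did not pass in the authors' deposited table. The median log2 fold of the 7 (of levels plus 1) was 6.06 over the larger and 7.55 over the smaller basal column, where the medians of all genes compared were 0.07 and 0.04.

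Against KO luminal the 7 genes divided. Lgals7 (34.7-fold, 26.9 to 45.5), Skint3 (95.4-fold), Slc14a1 (12.5-fold) and Fgfr3 (11.8-fold) were higher in Bsecs, Sprr1a and Fgfbp1 differed by less than 2-fold, and Klk10 was 131-fold lower in Bsecs (35.9 to 1083). Thus 4 of the 7 were called higher and 1 lower, against 6.07% and 10% of 6341 genes. Of the 7, 0 passed the adjusted p of the authors' deposited table, which passes 0.0405% of 14800 genes. The closest was Skint3, at 0.0667 in the authors' deposited table, followed by Klk10 at 0.114 and Lgals7 at 0.209.

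WT luminal cells had less of the 6 genes than KO luminal cells, and the ratios of Bsecs to WT luminal were wider. Lgals7 was 249-fold higher in Bsecs (121 to 620), Slc14a1 28.0-fold (22.3 to 35.7) and Fgfr3 21.3-fold (16.0 to 28.9). Skint3 was 232-fold higher with the floor of 3 reads in WT luminal (interval from 188). Sprr1a was 11.9-fold higher (10.9 to 13.05) and Fgfbp1 8.99-fold (5.69 to 14.9), while Klk10 was 336-fold lower (92.7 to 2779). All 7 were called, 6 higher and 1 lower, against 8.71% and 10.2% of 6349 genes. In the authors' deposited table Skint3 (adjusted p 0.00838), Klk10 (0.019) and Lgals7 (0.0269) passed, against 0.21% of 14304 genes. Median log2 folds of the 7 were 3.54 over KO luminal and 4.38 over WT luminal, beside 0.10 and 0.07 for all genes compared.

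**Figure D2:**
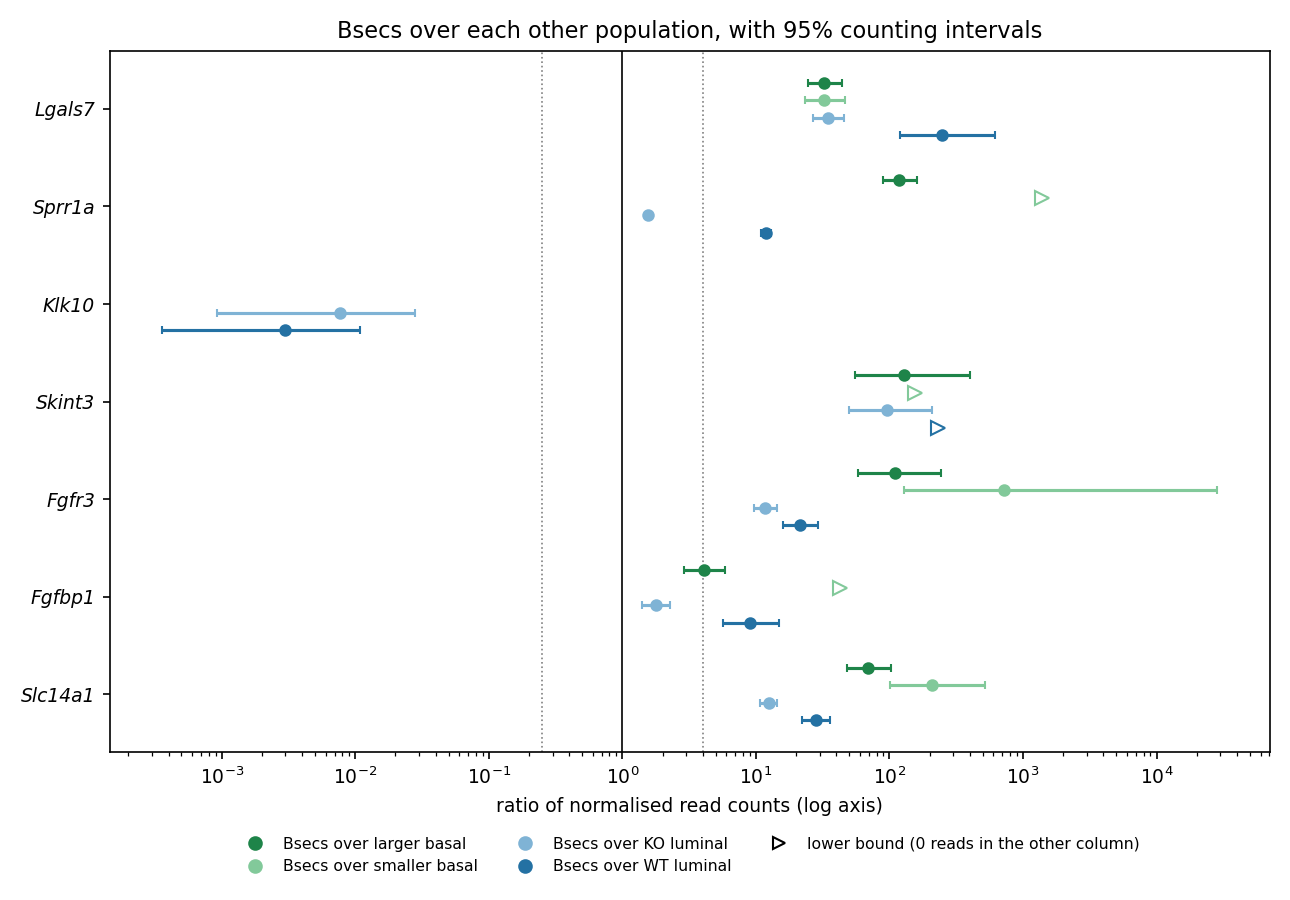
Ratio of the Bsecs level to that of each other column for the 7 genes (log axis), with bars for the 95% counting interval and open triangles for lower bounds where the other column had 0 reads; the solid line is a ratio of 1 and the dotted lines are 4-fold higher and 4-fold lower. Sprr1a and Fgfbp1 lie between 1 and 4 against KO luminal, at 1.54 and 1.79, and the Klk10 ratios lie far to the left, at 131-fold and 336-fold lower.

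Between the luminal columns, 6 of the 7 genes were higher in KO luminal than in WT luminal and Klk10 was lower. Sprr1a was 7.71-fold higher (7.04 to 8.45), Lgals7 7.17-fold (3.28 to 18.6) and Fgfbp1 5.01-fold (3.14 to 8.37). Slc14a1 (2.25-fold, 1.73 to 2.96), Fgfr3 (1.81-fold, 1.29 to 2.58) and Skint3 (2.43-fold by the floor, interval from 1.60, 9 reads against 0) differed less. Only 5 of the 7 reached the mean level of 50, and of these Sprr1a and Fgfbp1 were called higher and 0 lower, against 2.24% and 1.39% of 6392 genes. Sprr1a had an adjusted p of 0.0968 in the authors' deposited table, where 0.0882% of 14736 genes passed and 0 of the 7 did. Basal markers were higher in the same column: Krt14 had 298 reads in KO luminal and 54 in WT luminal, Krt5 42 and 1, and the summed level of the 6 basal markers was 348 against 95.5. Krt14 and Krt5 were also high in Bsecs, at 8490 and 3139 reads. Keratin genes highest in Bsecs were higher in KO luminal too: Krt15 (128 against 7 reads), Krt6a (492 against 127) and Krt16 (337 against 157). The part of cells with any of these markers in the difference was not tested, and fewer cells of a type and less RNA per cell cannot be told apart in such bulk samples.

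The basal columns had little of these genes, and 0 of the 7 reached a mean level of 50 there, where 3.69% of 6100 genes were called higher in the smaller column and 2.67% lower. By the floor of 3 reads, Sprr1a was 11.8-fold lower in the smaller basal column (interval from 9.26, 0 against 49 reads). Fgfbp1 was 10.4-fold lower by the same floor (from 8.09, 0 against 43). Slc14a1 was 3.0-fold lower (1.29 to 8.11), and Lgals7 had a ratio of 0.994 (0.629 to 1.56). The authors' deposited table passed 0.0274% of 14595 genes and 0 of the 7, with unadjusted p-values of 0.0175 for Sprr1a and 0.0267 for Fgfbp1. The median log2 fold of the 7 (of levels plus 1) was -2.07, from genes all below a mean level of 50. Some of them rest on very few reads, such as Fgfr3 with 1 against 9 and Skint3 with 0 against 5. It is therefore not set against the 0.08 of the genes compared, which all reached that level. For KO luminal over WT luminal the median of the 7 was 2.27, beside 0.02 for the genes that reached that level.

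Bsecs was set against the highest of the other 4 columns, gene by gene, for the 6530 genes with a mean level of at least 50. Skint3 had the highest ratio of all (95.4-fold) and Lgals7 the second (32.4-fold, rank 2), with Slc14a1 at rank 13 (12.5-fold) and Fgfr3 at rank 14 (11.8-fold). Those 4 were at least 4-fold over each other column, as were 0.674% of the genes (44 of 6530). Fgfbp1 (rank 301) and Sprr1a (rank 489) had their next highest level in KO luminal, and Klk10 stood near the far end at rank 6517. Ranks come from the columns that chose the genes and describe them only.

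**Figure D3:**
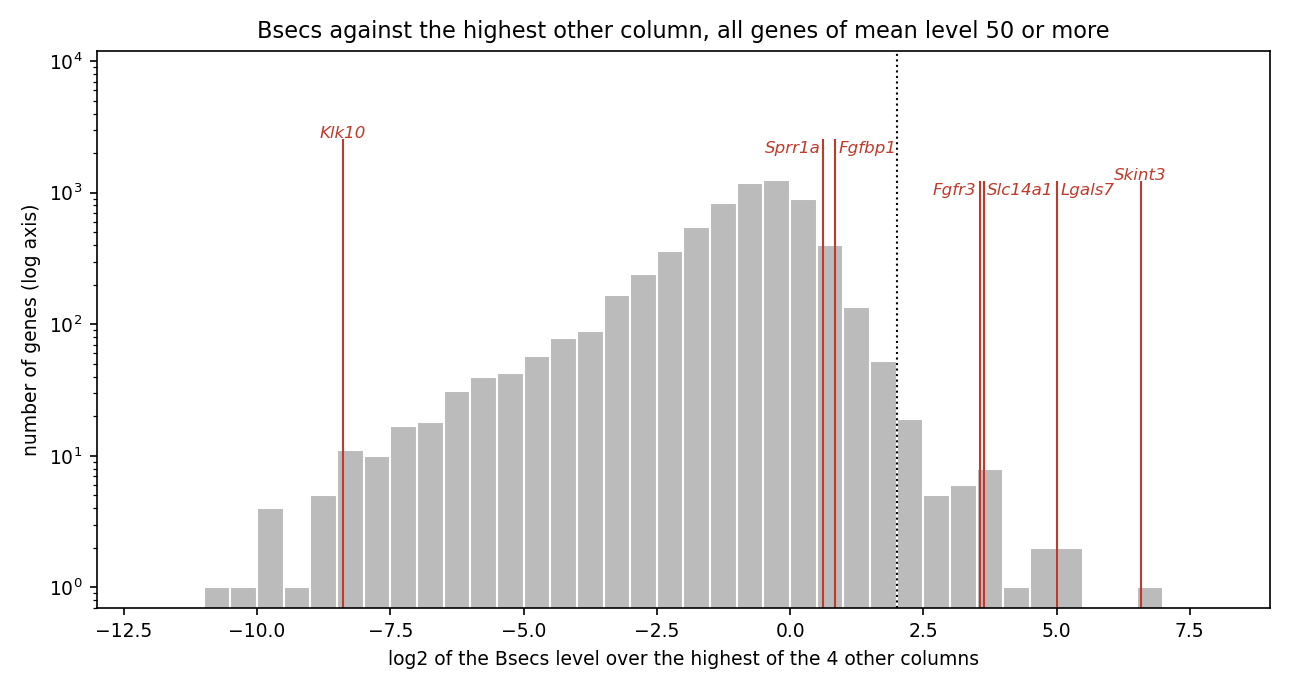
Number of genes (log axis) by the log2 ratio of the Bsecs level to the highest of the 4 other columns, for 6530 genes with a mean level of 50 or more; red lines mark the 7 genes and the dotted line is a 4-fold ratio. Skint3, Lgals7, Slc14a1 and Fgfr3 lie to the right of the dotted line, Fgfbp1 and Sprr1a between 0 and it, and Klk10 at -8.39.

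The 7 genes did not share a single pattern. Likeness was measured as the root mean square difference between log2 profiles over the 5 columns, each centred on its mean. Fgfr3 and Slc14a1 were the closest pair (0.55), followed by Lgals7 and Skint3 (1.41), and Klk10 and Skint3 were the farthest apart (5.98). Among 6367 other genes, the closest to Fgfr3 were Inhba, which encodes an activin subunit (0.33), the chemokine gene Ccl20 (0.43) and the wound keratin gene Krt6a (0.57), and the same 3 were closest to Slc14a1 (Ccl20 0.32, Inhba 0.81, Krt6a 0.87). Lgals7 was closest to the keratin gene Krt15 (0.51), the cytokine gene Csf2 (0.71) and the protease inhibitor gene Timp3 (0.71), and Skint3 to Lpo (1.02), Krt15 (1.12) and Ifi202b (1.14). Sprr1a was closest to the tight junction gene Cldn4 (0.76), with Il18r1 (0.99) and Tuba8 (1.10), all of them high in both Bsecs and KO luminal. Cldn4 had 37070 reads in Bsecs, 37369 in KO luminal, 13795 in WT luminal, 374 in the larger basal column and 4 in the smaller one. Fgfbp1 was closest to Dhrs9 (0.67), Ccdc80 (0.71) and Sema4a (0.76). Klk10 was closest to the nucleoside transporter gene Slc28a3 (0.54), Sema4f (0.78) and the lactoferrin gene Ltf (0.78), and Ltf had 4126 reads in WT luminal, 1208 in KO luminal and 4 in Bsecs. With the cosine of the profiles in place of this measure, 0 of these 3 genes were kept for any of the 7, so the names depend on the measure.

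Few other genes of the cornified envelope were read well enough to be set beside Sprr1a. Of 53 listed genes of that structure 50 were in the tables, 30 had 0 reads in every column and 35 had at most 3 reads in any. Neighbours of Sprr1a on the chromosome, in the gene order of GRCm38.p6, were listed at 0 (Sprr1b, Sprr3, Sprr4) or had 3 reads in Bsecs and 4 in KO luminal (Ivl, involucrin). Calml3, a calmodulin-like gene of epithelia, was highest in Bsecs, with 105 reads in Bsecs, 25 in KO luminal, 2 in the smaller basal column and 0 in the other columns; it was 6.12-fold over KO luminal (3.93 to 9.89). Tgm1, the transglutaminase that cross-links the envelope, had 9 reads in Bsecs, 662 in KO luminal, 270 in WT luminal, 67 in the smaller basal column and 18 in the larger one. The plakin Ppl had 297 reads in Bsecs, 857 in KO luminal, 346 in WT luminal, 62 in the larger basal column and 114 in the smaller, and Dmkn had 68, 101, 124, 7 and 0. Like Sprr1a, Dmkn had fewer reads in the basal columns than in the other 3. Sbsn had 19 reads in Bsecs, 214 in KO luminal, 213 in WT luminal and 2 and 3 in the basal columns. Only 2 to 6 genes of the list reached a mean level of 50 in a comparison, too few to describe the list by counts. Ppl and Calml3 were called higher over the larger basal column, and Calml3 also over each other column. Tgm1 was called lower in Bsecs than in the smaller basal column and both luminal ones. Sbsn was called lower in Bsecs than in both luminal columns. Evpl, with 9 reads in Bsecs, 188 in KO luminal and 71 in WT luminal, was called lower than in KO luminal.

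Relatives of the other genes were mixed, as some shared the highest column of their gene, some did not, and some were hardly read. For Lgals7, Lgals3 had 607 reads in Bsecs, 6075 in WT luminal, 6768 in KO luminal, 67 in the larger basal column and 58 in the smaller, while Lgals1 had 16 in Bsecs, at most 26 in the luminal columns, and 228 and 699 in the larger and the smaller basal column. Galectin-3 was thus highest in luminal cells and galectin-1 in basal cells, where galectin-7 was highest in Bsecs. The galectin-like gene Lgalsl was also highest in Bsecs, at a level of 84.5 against 17.8 to 42.4 elsewhere. Lgals8 and Lgals9 had their highest levels in a basal column. For Skint3, Skint1, which in mice is needed for skin T cells to develop, had 20 reads in Bsecs and 0 in every other column. Skint4 and Skint7 had 3 reads each in Bsecs, and 7 of the 10 other Skint genes had 0 reads anywhere. Klk10 lies in a cluster of kallikrein genes, of which Klk11 had 133 reads in WT luminal, 47 in KO luminal and 0 in the other columns. Klk8 was the only one of 13 listed genes (kallikreins and the inhibitor Spink5) read in Bsecs, with 38 reads against 76 in WT luminal, 23 in KO luminal and 0 in the basal columns. For Slc14a1, the related transporter gene Slc14a2, its neighbour on the chromosome, was listed at 0 except for 3 reads in the smaller basal column.

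Neighbouring genes of other families, in the gene order of GRCm38.p6, were mixed. Next to Fgfr3, Tacc3, which encodes a spindle protein, had 42 reads in Bsecs and 1 to 10 elsewhere, while Letm1 on the other side had 268 in Bsecs and 148 to 261 elsewhere; Slbp, 3 genes away, had 164 in Bsecs and 18 to 51 elsewhere. Prom1, the neighbour of Fgfbp1 and a luminal marker, had 169 reads in Bsecs, 986 in WT luminal and 1374 in KO luminal, and Cd38 on the other side had 0 in Bsecs and at most 16 elsewhere. Capn12, beside Lgals7, had 20 reads in Bsecs against 83 in KO luminal, and Lgals4, on its other side, was listed at 0 in Bsecs. Near Slc14a1, Pard6g had 237 reads in Bsecs and 6 to 101 elsewhere, while Setbp1 had 238 in Bsecs, 474 in WT luminal and 660 in KO luminal, and Siglec15 was listed at 0 in every column.

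Other FGF receptors did not follow Fgfr3. Fgfr2 had 164 reads in Bsecs, 1963 in WT luminal, 2285 in KO luminal, 462 in the larger basal column and 533 in the smaller one. Its level in Bsecs was 0.0986 times that in WT luminal (0.0835 to 0.116) and 0.105 times that in KO luminal (0.0887 to 0.123), opposite to Fgfr3. Fgfr1 had 439 reads in Bsecs and 562 to 1514 elsewhere, Fgfr4 was listed at 0 in Bsecs, and the ligand gene Fgf1 had 2 reads in Bsecs and 136 in WT luminal. Not all genes of the list were low in Bsecs. The co-receptor gene Klb had 16 reads in Bsecs and 0 to 2 elsewhere. Fgf13 had 48 reads in Bsecs, 85 in KO luminal, 10 in WT luminal, and 2 and 0 in the larger and the smaller basal column. Of 18 listed receptors, ligands and co-receptors, only 3 reached the mean level of 50 in each comparison of Bsecs; 0 of these 3 were called higher, where 6.07% to 8.71% of all genes were, and 1 or 2 were called lower, too few to describe the list. Of 14 feedback genes of FGF and ERK signalling, 6 or 7 reached that level; 1 was called higher, Dusp4 over the larger basal column (7.52% of all genes), and 1 was called lower in each comparison (7.55% to 10.2% of all genes). Spred2, an inhibitor of the pathway, had 8 reads in Bsecs against 560 in KO luminal and 100 in WT luminal, and Dusp6, a phosphatase of ERK, had 90 against 201 and 257. In the other direction, Il17rd, a further inhibitor of FGF signalling, had 53 reads in Bsecs, 12 in WT luminal, 11 in KO luminal, 4 in the larger basal column and 2 in the smaller one, and the FGF-responsive factor gene Etv5 had 47 in Bsecs and 10 to 39 elsewhere.

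Among water and urea channels, Aqp9 also had its highest level in Bsecs, and its levels in the other columns were close to each other. Aqp9, a channel for water and small solutes, had 90 reads in Bsecs, 18 in WT luminal, 13 in KO luminal, 17 in the larger basal column and 11 in the smaller one, and was from 5.80-fold (3.43 to 10.4) over the larger basal column to 10.1-fold (5.61 to 19.7) over KO luminal, its lowest. Aqp5 had 128 reads in Bsecs, 436 in WT luminal, 711 in KO luminal and 1 or 0 in the basal columns, and Aqp3 had 66 in Bsecs and 110 to 271 elsewhere.

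Transcription factors of the epidermis were mixed. Foxn1, a factor of hair and upper epidermal keratinocytes, had 204 reads in Bsecs and 18 in KO luminal. It had 8 in the larger basal column and 0 in the other columns. Its level in Bsecs was 16.5-fold over KO luminal (10.2 to 28.4). As for Skint3, its reads outside Bsecs were few, and no order is read among those columns. Klf4, a factor of the skin barrier, had 895 reads in Bsecs, 441 in KO luminal, 235 in WT luminal, 103 in the larger basal column and 94 in the smaller. Ovol1 had 308 reads in Bsecs and 65 to 97 elsewhere, and Grhl3 66 against 21 in WT luminal, 6 in KO luminal and 0 in the basal columns. Prdm1 had 4 reads in Bsecs against 151 and 148 in the basal columns, and Elf3 had 74 against 449 and 545 in the luminal ones. Trp63, which marks the basal layer of stratified epithelia, had 95 reads in Bsecs, 390 in the larger basal column, 82 in the smaller, 25 in KO luminal and 4 in WT luminal. Of the 22 listed factors, 11 to 13 reached a mean level of 50 in a comparison. Over the larger basal column 5 of 11 were called higher and 1 lower, where 7.52% and 7.55% of all genes were, and over the smaller 4 of 12 higher and 2 lower, beside 7.59% and 8.44%. Over KO luminal 3 of 13 were higher and 2 lower, beside 6.07% and 10%, and over WT luminal 4 of 11 higher and 1 lower, beside 8.71% and 10.2%.

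Of 13 surface and junction genes of keratinocytes, 9 reached a mean level of 50 in each comparison of Bsecs. Of these 9, 4 were called higher over the larger basal column (7.52% of all genes), 3 over the smaller (7.59%), 4 over KO luminal (6.07%) and 4 over WT luminal (8.71%), and 0 were called lower in any. Pkp1, a desmosomal plakophilin, had 667 reads in Bsecs, 176 in WT luminal, 119 in KO luminal, 331 in the larger basal column and 161 in the smaller. Lypd3 had 650 reads in Bsecs and 32 to 336 elsewhere. The median log2 fold over the list was 1.14 over the larger basal column, 1.71 over the smaller, 1.49 over KO luminal and 0.37 over WT luminal. These lists were chosen with results of the same columns known and their counts describe them only.

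**Figure D4:**
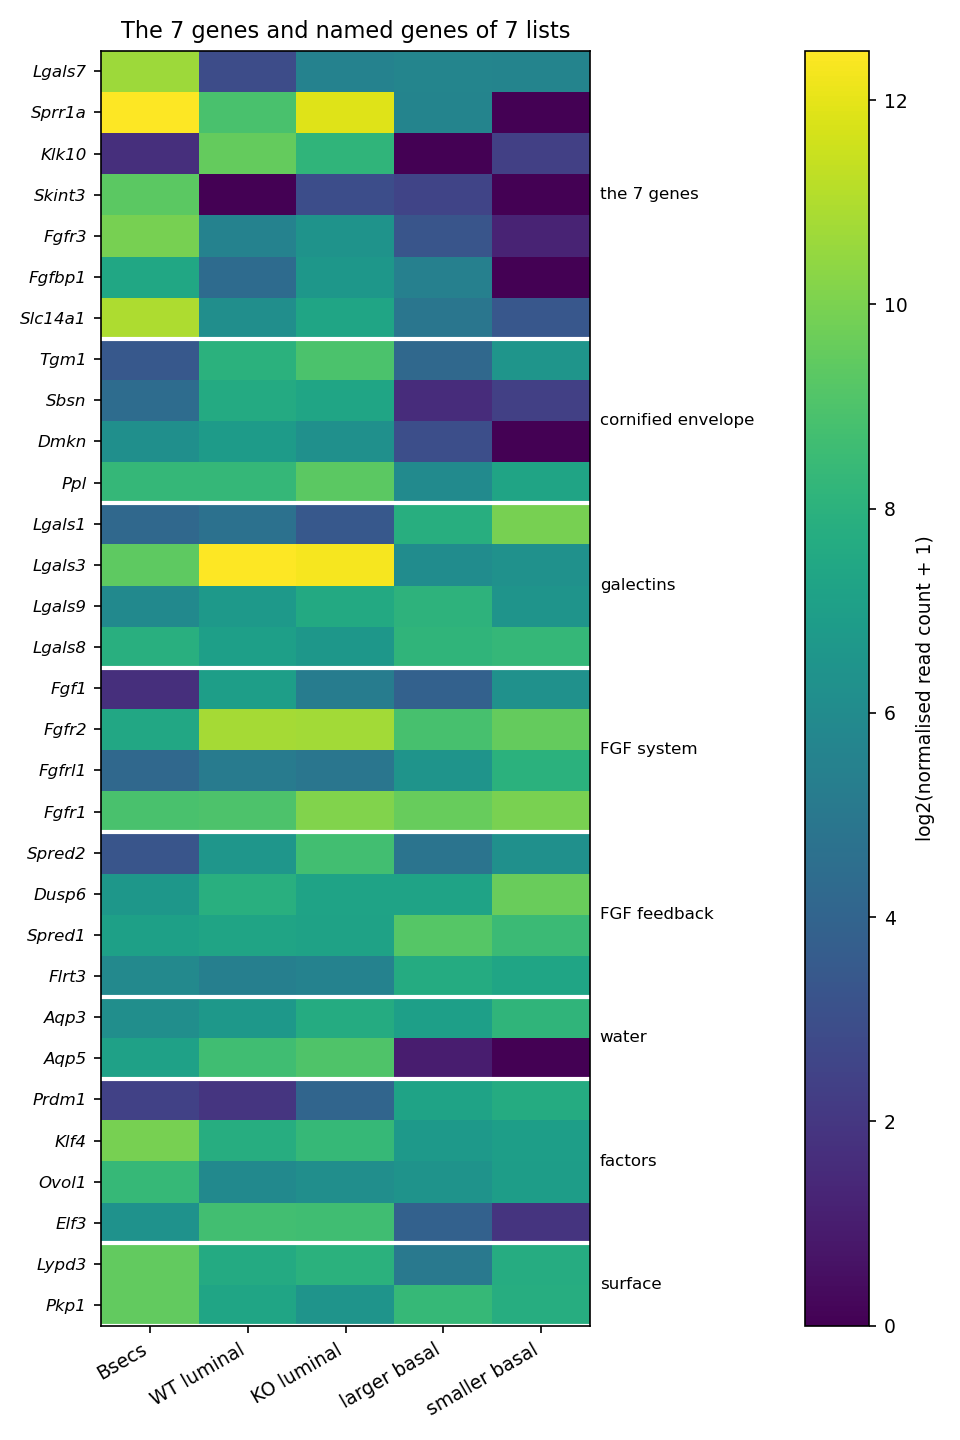
Levels, as log2 of the normalised read count plus 1, of the 7 genes and of up to 4 genes from each of 7 lists in the 5 columns; colours compare columns within a gene, and gene lengths are not taken into account between genes. Lgals7, Skint3, Fgfr3 and Slc14a1 are brightest in Bsecs, Klk10 and Fgfr2 are brightest in the luminal columns, and Lgals1 in the basal ones.

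Markers of the layers and cell types around the 7 genes were summed. The 6 markers of the upper epidermis (Krt1, Krt10, Krt2, Krt77, Lor and Krtdap) had a summed level of 15.2 in Bsecs and 10.9 to 19.8 in the other columns, with Krt1, Krt77 and Lor at 0 in Bsecs. Krtdap was highest in Bsecs, with 8 reads against 2 in KO luminal and 0 in the other columns. Keratins of the basal layer were high in Bsecs, with 3139 reads of Krt5 and 8490 of Krt14, whereas the contractile genes of myoepithelium were low there, Acta2 at 137 reads against 12085 and 12512 in the basal columns and Cnn1 at 4 against 627 and 1929. The luminal markers summed to 16922 in Bsecs, 43953 and 42450 in the WT and KO luminal columns, and 3210 and 3622 in the larger and the smaller basal column. Epcam (level 6741) and Krt19 (6634) made up most of the Bsecs sum, and Epcam most of the basal sums (2748 and 2441). Krt8, Krt18, Prom1 and Csn3 were called lower in Bsecs than in both luminal columns, and 0 markers higher (lower for 10% to 10.2% of all genes). Krt18, Krt19 and Prom1 were called higher than in both basal columns (7.52% and 7.59% of all genes). All 5 melanocyte markers were at 0 in Bsecs, 4 of 6 immune markers were at 0 (summed level 21.7, range elsewhere 0.989 to 23.0), and 3 of 4 endothelial markers were at 0. Hair follicle and sebaceous markers summed to 31.4 in Bsecs and 11.2 to 150 elsewhere, and fibroblast markers to 336 in Bsecs and 391 to 2184 elsewhere. Dcn made up most of the fibroblast sums in WT luminal (868 reads) and KO luminal (1360), against 188 reads in Bsecs, while the other 5 fibroblast markers had more reads in Bsecs than in KO luminal, among them Col1a2 (41 against 1) and Col3a1 (39 against 2). Over the list of 6, the median log2 fold of Bsecs (of levels plus 1) was 3.32 over KO luminal and -2.63 over the larger basal column. The parts of these cell types in the levels of the 7 genes were not tested.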

How the data were processed

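RNA was taken up in TRIzol, turned into double-stranded cDNA with the Ovation RNA-seq V2 system and made into libraries with the Ovation Ultralow DR system, per the labels' protocols. STAR, DESeq and mm9 are named in the submitters' processing notes; versions, the read counter, annotation and strand settings were not given in the sources used here. Per the file headers, the authors deposited 6 tables of 24000 rows holding p-values, log2 values and the ratio (fold) of the mean signal of 2 groups (normalised read counts). The authors' ratio and log2 columns were not used, and the p-values were adjusted here (Benjamini-Hochberg) over all genes that had one. Date conversion of 27 symbols in the deposited tables removed those rows per gene but not from totals.

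Each deposited mean was a whole multiple of a column's step (within 0.01 of a count for 100% of values). Dividing by it recovered whole read counts, which gave 5 distinct columns. No table holds a value per library (0 such columns), and 0 columns came from elsewhere; whether a column pools both libraries is not given. The p-values compare 1 column with 1 column, and the plan's comparison by size was kept, with no test of its own.

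Levels are counts divided by median-of-ratios factors over the 5 columns. Ratios use levels, with a floor of 3 counts per column at 0 and none where both columns had 3 counts or fewer. Intervals are exact (Clopper-Pearson for the split of counts, Poisson for levels) at 95% and cover counting error only, since amplified reads that carry no molecular identifiers may copy 1 molecule. A ratio to the floor leaves out counting error and can exceed the lower limit of its interval (Sprr1a 1398-fold, interval from 1137). Column totals ran from 2036681 to 3840462 counts.

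The 7 genes, the 9 gene lists and the 8 marker lists were chosen with earlier results of these data known. Named genes were the 7, for each the 3 of most similar profile, from each list up to 4 with the largest log2 fold of Bsecs over the mean of the other columns at a mean level of 50 or more, and relatives of the 7; further list genes, chromosome neighbours and markers were chosen after their values were seen, and not all genes that the rule names are reported here. Alternatives were other scales, no minimum level, 2-fold and 8-fold rules, the adjusted deposited p-values and edgeR's exact test with an assumed dispersion of 0.16. The steps were tested on simulated counts. Start regions are from RefSeq, build GRCm38.p6, and no other coordinates are given because the files use mm9. Tools were Python 3.11.15, numpy 2.4.6, scipy 1.17.1, pandas 2.3.3, matplotlib 3.10.9, R 4.3.3 and edgeR 4.0.16.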

Additional observations from a re-analysis of the deposited data

How the results depend on the processing

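Counts of the 7 genes past a ratio of 4 moved in 10 of 115 recomputed values and none changed direction. By the adjusted p-values of the authors' deposited tables, 3 were higher in Bsecs over the larger basal column in place of 6, 0 over KO luminal in place of 4, and 2 over WT luminal in place of 6. The same rule gave 0 lower in Bsecs than in KO luminal in place of 1, and 0 higher in KO luminal than in WT luminal in place of 2. That last count was also 0 with an 8-fold rule and with edgeR's exact test at a dispersion of 0.16, and a 2-fold rule added 1 gene lower in KO luminal (Klk10), in place of 0. Between the basal columns, 3 genes were lower in the smaller column with no minimum level and 2 by edgeR, in place of 0. Column totals moved all log2 folds of Bsecs by -0.47 to -0.76, totals without Rn45s by -0.16 to -0.35, TMM factors by -0.01 to 0.10, and the factors of the deposited pairs by -0.01 to 0.06. Of the 195 log2 folds recomputed for the 7 genes, 22 moved beyond counting error, 20 of them with column totals and 2 with totals without Rn45s; 41 of 324 list counts moved by over 1.5 times. The cause of these differences was not tested. No paired analysis was possible because the tables hold 1 column per group and no values per library, and for the same reason no library could be left out. Depth limits the genes near 0, such as Skint3 outside Bsecs and Klk10 outside luminal cells.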

Other observations

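Other genes at least 4-fold over each other column stood beside Skint3, Lgals7, Slc14a1 and Fgfr3 in Bsecs, and 3 of them were keratin genes. Krt15, a keratin of basal epidermis and hair follicle, had 2557 reads in Bsecs, 128 in KO luminal, 47 in the larger basal column, 31 in the smaller and 7 in WT luminal, 29.1-fold over the next column. The wound keratins Krt16 and Krt6a had 4586 and 4664 reads in Bsecs, and were 19.8-fold and 13.8-fold over the next column. Krt6a had 3 reads in the smaller basal column and Krt16 had 169.

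That set also held genes of other kinds, among them cytokine, chemokine and matrix genes. Csf2, which encodes the cytokine GM-CSF, had 1179 reads in Bsecs and 3 to 49 elsewhere (25.99-fold over the next column), Inhba 1067 and 1 to 115 (13.5-fold), and Ccl20 214 and 0 to 37 (8.43-fold). The metalloproteinase inhibitor gene Timp3 had 23304 reads in Bsecs and 583 to 1818 elsewhere (14.0-fold), and the matrix glycoprotein gene Tnc 6201 and 148 to 535 (12.7-fold). The interferon-inducible gene Ifi202b had 1258 reads in Bsecs and 3 to 57 elsewhere (32.2-fold), and the protease inhibitor gene Serpinb2 1180 and 6 to 83 (15.6-fold). These genes were chosen after their values were seen, rest on 1 column each, and are given as values.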
